A study of Mus musculus with 16 samples.

Results

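The genes described here are 9 chaperones and folding enzymes of the endoplasmic reticulum (ER), Hspa5, Hsp90b1, Calr, Canx, Pdia3, Pdia4, Pdia6, Dnajb9 and Sdf2l1, together with Xbp1, a transcription factor of the unfolded protein response. They were chosen by symbol, with earlier results of these data known, and all 10 were found among the 16707 genes of the authors' log2 CPM table. Primary astrocytes were selected with anti-ACSA2 beads from the brains of postnatal day 6 pups, which were WT (C57BL6J) or NLRX1-/- (written Nlrx1-/- below), and grown for about 10 days in serum-free medium. Cultures from 4 litters of each genotype received vehicle (water) or LPS at 500 ng/mL with IFNγ at 10 ng/mL for 24 h, which gave 4 litter pairs per genotype and 16 libraries. The age is P6 in the labels and methods but younger in the results text of the study, the vehicle is named differently in a legend, and which part of Nlrx1 is missing in the knockout is not given in the sources used here.

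The ER is where secreted and membrane proteins fold, and its lumen is filled with chaperones that bind unfolded chains and with disulfide isomerases that form and exchange their disulfide bonds. When unfolded protein builds up, the sensors IRE1, PERK and ATF6 start the unfolded protein response. ATF6 and the spliced form of XBP1, made when IRE1 cuts a short intron out of Xbp1 RNA, raise the chaperone genes, while PERK slows translation and favours ATF4 and CHOP. In immune and glial cells LPS is also known to engage IRE1 and XBP1, and calreticulin and PDIA3 belong to the complex that loads peptides on MHC class I molecules, which IFNγ induces.

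The sequence best known to tie these genes together is the ER stress response element (ERSE), bound by NF-Y at its first block and by ATF6 at its second. It was searched, as CCAAT and CCACG with any 9 bases between them, on both strands of 32851 RefSeq promoters, from 250 before to 50 after the gene's start. These windows come from GRCm38.p6, and the windows of all 10 genes were found once and without a mismatch in GRCm39, which gave the coordinates below. An exact ERSE was found in 39 of the 32851 promoters (0.119%), and 5 of the 10 genes had at least 1. The element was searched because it is already known from genes of this kind, so this count is no independent finding of enrichment. The 6 copies are shown because they are what Hspa5, Hsp90b1, Calr, Canx and Pdia6 share in sequence. Capitals mark the first and second blocks, and each is written 5′ to 3′ on the strand that reads as an ERSE, with 5 bases on either side.
Hspa5: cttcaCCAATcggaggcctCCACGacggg
Hsp90b1, distal: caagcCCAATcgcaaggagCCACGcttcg
Hsp90b1, proximal: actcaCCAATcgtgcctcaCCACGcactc
Calr: atgggCCAATgagggtcgaCCACGcgttg
Canx: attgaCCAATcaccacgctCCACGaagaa
Pdia6: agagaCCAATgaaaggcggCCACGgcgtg

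The copy of Hspa5 lay nearest to a start, from 65 to 47 bases upstream (chr2:34662037-34662055, + strand), inside exons of longer Hspa5 transcripts in GENCODE M39. Hsp90b1 had copies from 212 to 194 bases upstream (chr10:86541502-86541520, - strand), in an exon of the neighbour Ttc41, and from 107 to 89 bases upstream (chr10:86541397-86541415, + strand), in exons of longer Hsp90b1 transcripts. Calr had its copy on the strand opposite to the gene, from 162 to 144 bases upstream (chr8:85573704-85573722, + strand), with no annotated gene. The copy of Canx lay from 145 to 127 bases upstream (chr11:50216627-50216645, - strand), in an exon of Gm73210. The copy of Pdia6 lay from 98 to 80 bases upstream (chr12:17316492-17316510, + strand), with no annotated gene. No exact ERSE was found in the windows of Pdia3, Pdia4, Dnajb9, Sdf2l1 or Xbp1. A second element, ERSE-II (ATTGG and CCACG with 1 base between them, found in 0.0365% of promoters), and the core of the element bound by XBP1 (TGACGTGG, found in 0.676%) were found in none of the 10. The short blocks alone were common, CCAAT in 37.4% and CCACG in 32.8% of all promoters, and both overlap the ERSE.

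**Figure D1:**
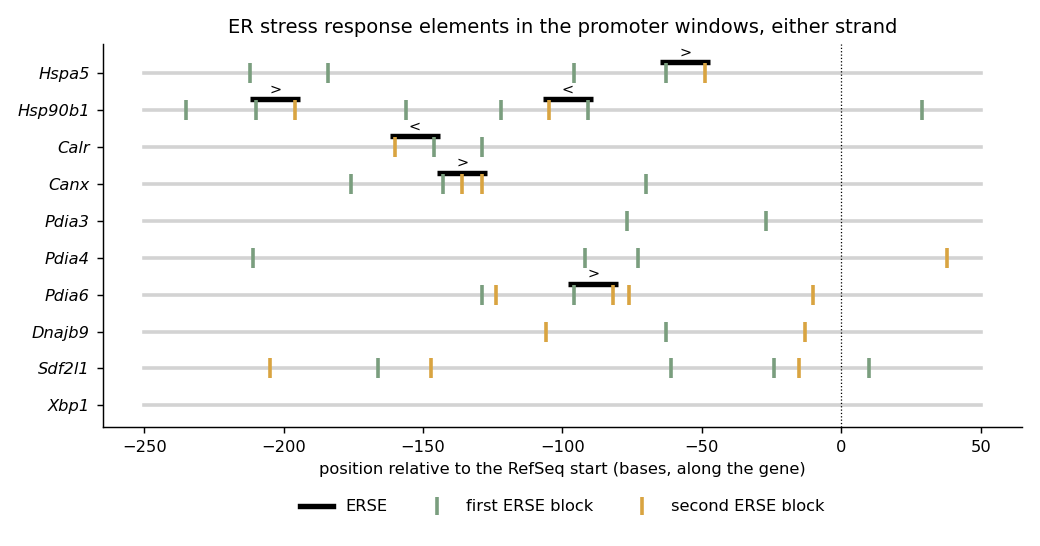
Positions of ERSE copies and of their short blocks in the promoter windows of the 10 genes, in bases from the RefSeq start along each gene (dotted line at 0), searched on both strands. Black bars are exact ERSE copies, with an arrowhead for their strand relative to the gene. Hsp90b1 has a pair of copies, Hspa5, Calr, Canx and Pdia6 have 1 each, and the other 5 genes have none.

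Salmon assigned between 27259420 and 43752903 read pairs to transcripts per library (median 35554625). Members were covered by 193 (Sdf2l1) to 41536 (Hspa5) reads in a library. The targeted gene Nlrx1 lay between 16.8 and 21.7 CPM (read counts scaled to a library of a fixed size) in the WT libraries and between 2.07 and 7.75 CPM in the Nlrx1-/- libraries, without overlap. Of the astrocyte markers, 10 of 10 were in the table, and their summed level was 5386 to 10848 CPM. Of the microglia markers, Aif1, Cx3cr1, Tmem119 and Trem2 were not in the table and had at most 5 reads in any library. Oligodendrocyte lineage markers summed to 626 to 1258 CPM and neuron markers to 824 to 1177 CPM, the latter mostly Map2. Nlrx1-/- litters 2 and 4 stood apart from litters 1 and 3. On the first principal component of log2 CPM centred by condition (22.6% of the variance), the libraries of litters 2 and 4 lay between 11.9 and 40.4, and those of litters 1 and 3 between -47.8 and -11.4. WT litters also spread along this component, from -18.49 to 25.96, a narrower range than the -47.8 to 40.4 of Nlrx1-/- litters. Spread was thus present in both genotypes but wider in Nlrx1-/- cultures. The libraries of WT litter 1, at 21.8 and 25.96, lay within the range of Nlrx1-/- litters 2 and 4. Those of WT litter 4, at -15.87 and -18.49, lay within the range of Nlrx1-/- litters 1 and 3. WT litters 2 and 3 lay between these ranges. In Nlrx1-/- vehicle cultures, the astrocyte markers summed to 5386 and 5997 CPM in litters 2 and 4. In litters 1 and 3 they summed to 7076 and 8416 CPM. Several results on Nlrx1-/- cultures in which litters 2 and 4 stood out are therefore given with and without these litters. The Nlrx1-/- responses of listed genes outside the 10 are not given without both litters. The part of the markers in these results was not tested. In these bulk libraries, a change in RNA per cell and a change in the share of cells of a type cannot be told apart.

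To compare levels between genes, TPM (a transcript's share of all transcripts, which accounts for length) was used. In WT vehicle cultures Calr, a lectin-like calcium-binding chaperone of the lumen, was highest at 578 ± 57.3 TPM (SD, n = 4). Hsp90b1 (411 ± 29.4 TPM), the ER form of HSP90, Canx (389 ± 7.99 TPM) and Pdia3 (380 ± 28.4 TPM) came next, and neighbours in that order overlapped in range. Hspa5, the chaperone BiP, followed at 271 ± 29.4 TPM, clear of Pdia3 above and Pdia4 below. The disulfide isomerases Pdia4 (200.5 ± 15.2 TPM) and Pdia6 (184 ± 22.2 TPM) overlapped. Dnajb9, Xbp1 and Sdf2l1 were the least abundant, at 58.2 ± 7.58, 23.0 ± 1.32 and 17.6 ± 4.65 TPM, and the ranges of the last pair overlapped. With LPS + IFNγ the order in WT changed at both ends. Pdia3 moved to the second place at 781 ± 32.9 TPM, above the range of Hsp90b1 (648 ± 41.3 TPM), and Sdf2l1 (66.1 ± 5.85 TPM) was above the range of Dnajb9 (50.9 ± 2.48 TPM). The 10 genes together made up 2512 ± 149.8 TPM of the WT and 2564 ± 178 TPM of the Nlrx1-/- vehicle cultures, and 4406 ± 183 and 4783 ± 302 TPM of the respective treated cultures (SD, n = 4).

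The first question was how the genes responded to LPS + IFNγ within litters. In WT cultures 9 of 10 rose and 0 fell (limma with litter as a block, Benjamini-Hochberg adjusted p below 0.05), where 24.9% of all genes rose (46.7% were called in either direction). In Nlrx1-/- cultures 9 of 10 rose as well, where 26.6% of all genes rose (52.1% in either direction). Dnajb9 was the exception in both genotypes. The median response was 1.17 log2 units (as the log2 ratio of CPM) in WT and 1.10 in Nlrx1-/- cultures, where the medians over all genes were -0.02 and -0.02. Both counts were also 9 in edgeR (43.9% and 49.4% of all genes called), in DESeq2 (45.2% and 50.4%) and without Nlrx1-/- litters 2 and 4 (52.8% and 38.4%).

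**Figure D2:**
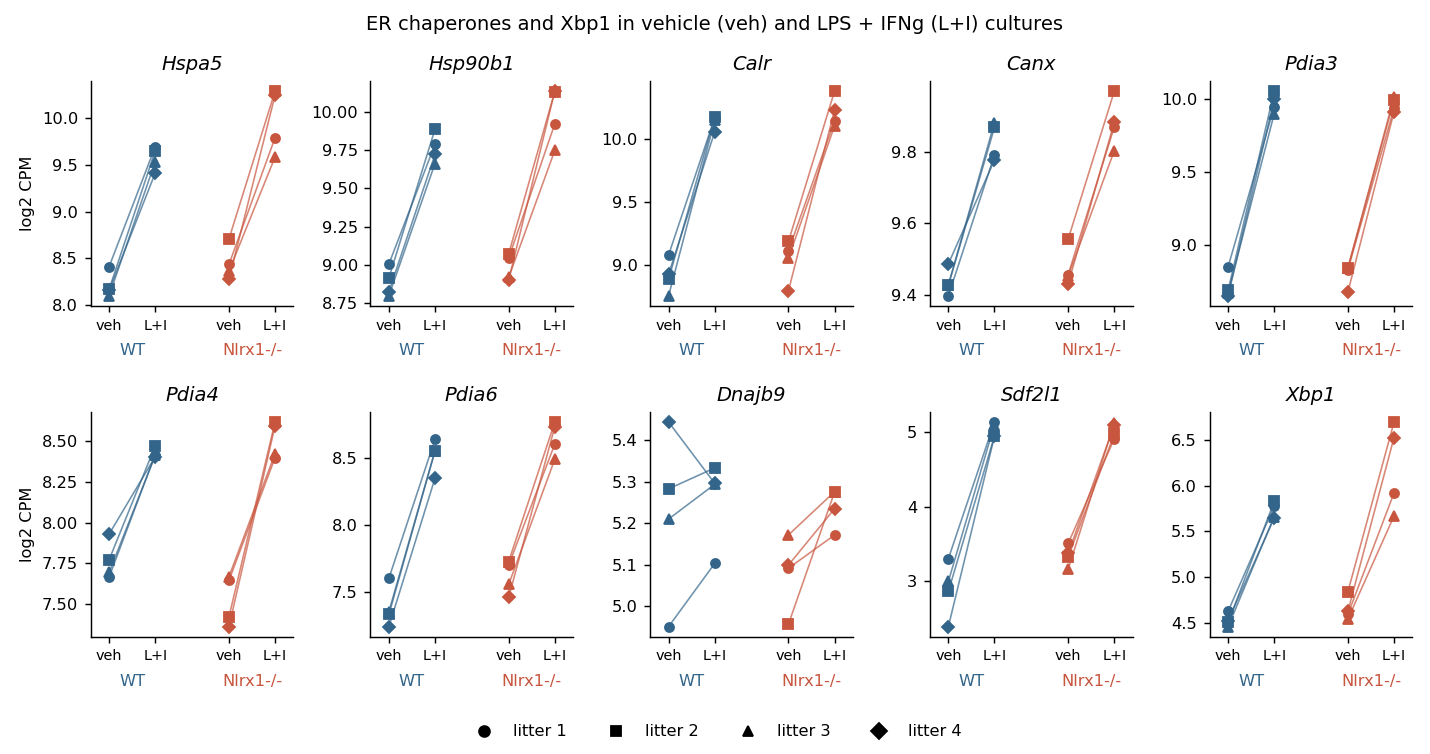
Level of each of the 10 genes in every library, in log2 CPM on a linear axis whose range differs between panels. Each line joins the vehicle (veh) and LPS + IFNγ (L+I) cultures of 1 litter, in WT (blue) and Nlrx1-/- (red). Lines rise in 9 panels, and the exception is Dnajb9. The LPS + IFNγ values of Nlrx1-/- litters 2 and 4 lie above those of litters 1 and 3 for Hspa5, Hsp90b1, Calr, Canx, Pdia4, Pdia6 and Xbp1.

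Hspa5 (chr2:34661982-34668880, + strand, GENCODE M39 on GRCm39) encodes BiP, the HSP70 of the ER, which holds unfolded chains and keeps the stress sensors inactive. In WT vehicle cultures it was at 340.2, 287, 274 and 285 CPM in litters 1 to 4, and in WT LPS + IFNγ cultures at 829, 804, 742 and 682 CPM. In Nlrx1-/- vehicle cultures it was at 345, 418, 329 and 309 CPM, and with LPS + IFNγ at 886, 1251, 767 and 1214 CPM. All treated libraries were above all vehicle libraries, and Nlrx1-/- litters 2 and 4 stood above the other 6 treated libraries. The response was 1.37 ± 0.10 log2 units in WT (SE, 4 litters per genotype, limma adjusted p = 3.14e-07), or 2.58-fold. In Nlrx1-/- it was 1.53 ± 0.10 (limma adjusted p = 1.03e-07), or 2.90-fold, and 1.29 without litters 2 and 4. These SEs are pooled over both genotypes by limma, while the SD over litters was 0.11 in WT and 0.33 in Nlrx1-/- cultures. All response SEs below are pooled in this way.

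Hsp90b1 (chr10:86526073-86541446, - strand) encodes GRP94, a chaperone of integrins and Toll-like receptors. It was at 514, 483, 446 and 454 CPM in WT vehicle and at 883, 946, 810.1 and 844 CPM in WT LPS + IFNγ cultures. The Nlrx1-/- cultures had 529, 539, 484 and 479 CPM in vehicle and at 969, 1122, 859.8 and 1124 CPM with LPS + IFNγ. Treated and vehicle libraries did not overlap, and litters 2 and 4 were again the highest. It rose by 0.88 ± 0.063 log2 units in WT and 1.00 ± 0.06 in Nlrx1-/- cultures (SE, limma adjusted p = 4.31e-07 and 1.22e-07).

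Calr (chr8:85567946-85573667, - strand) and Canx (chr11:50183939-50216529, - strand) encode calreticulin and the membrane-bound calnexin, which bind the trimmed sugars of new glycoproteins. Calr was at 540.5, 473, 431 and 486 CPM in WT vehicle and at 1153, 1158, 1137 and 1067 CPM in WT LPS + IFNγ cultures. Among Nlrx1-/- cultures Calr was at 553, 582, 529.8 and 443 CPM in vehicle and at 1134, 1336, 1103 and 1204 CPM with LPS + IFNγ. Calr rose by 1.23 ± 0.07 log2 units in WT and 1.18 ± 0.07 in Nlrx1-/- cultures (SE, limma adjusted p = 5.47e-08 and 7.25e-08). Canx had the smallest of the increases that passed the test, from between 674 and 717 CPM to between 877 and 943 CPM in WT, a rise of 0.39 ± 0.04 log2 units or 1.31-fold (SE, limma adjusted p = 1.87e-05). Canx rose by 0.41 ± 0.04 log2 units in Nlrx1-/- cultures (limma adjusted p = 1.18e-05). These partners in glycoprotein folding thus differed in the size of their response, and 18.5% of all genes had a response above that of Canx in WT, against 5.14% above that of Calr.

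Pdia3, Pdia4 and Pdia6 encode protein disulfide isomerases. Pdia3 (chr2:121244149-121270339, + strand), which works with calreticulin and calnexin, was at 461, 412, 407 and 402 CPM in WT vehicle and at 988, 1063, 955 and 1022 CPM in WT LPS + IFNγ cultures. The level of Pdia3 in Nlrx1-/- cultures was 455, 459, 458 and 409 CPM in vehicle and at 979, 1019, 1034 and 964 CPM with LPS + IFNγ. The treated libraries of the genotypes covered nearly the same range, and litters 2 and 4 did not stand out. Pdia3 rose by 1.26 ± 0.05 log2 units in WT and 1.17 ± 0.05 in Nlrx1-/- cultures (SE, limma adjusted p = 1.98e-09 and 4.24e-09). Pdia6 (chr12:17316533-17335913, + strand) went from between 152 and 195 CPM to between 326 and 398 CPM in WT, a rise of 1.13 ± 0.06 log2 units (SE, limma adjusted p = 2.78e-08). Pdia6 also rose in Nlrx1-/- cultures, by 1.03 ± 0.06 log2 units (limma adjusted p = 6.18e-08).

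Pdia4 (chr6:47770077-47790462, - strand), also called ERp72, was at 203, 219, 207 and 244 CPM in WT vehicle and at 342, 355, 341 and 339 CPM in WT LPS + IFNγ cultures. Its Nlrx1-/- counterparts were at 200.1, 171, 203 and 164 CPM in vehicle and at 338, 393, 343 and 387 CPM with LPS + IFNγ. Litters 2 and 4 were the lowest of the 8 vehicle libraries and the highest of the 8 treated ones. It rose by 0.66 ± 0.08 log2 units in WT and 0.99 ± 0.08 in Nlrx1-/- cultures (SE, limma adjusted p = 4.72e-05 and 1.49e-06), and by 0.76 in Nlrx1-/- cultures without litters 2 and 4.

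Sdf2l1 (chr16:16948002-16950252, - strand) encodes a small lumenal partner of BiP and its J-domain proteins, and it had the largest response of the 10. It was at 9.77, 7.18, 7.89 and 5.15 CPM in WT vehicle and at 35.2, 30.9, 34.4 and 30.8 CPM in WT LPS + IFNγ cultures. In Nlrx1-/- cultures it was at 11.3, 9.93, 8.84 and 10.3 CPM in vehicle and at 30.1, 31.4, 34.9 and 34.3 CPM with LPS + IFNγ. The genotypes met at about the same treated level, and 3 of 4 Nlrx1-/- vehicle libraries were above all WT vehicle libraries. It rose by 2.16 ± 0.12 log2 units or 4.45-fold in WT and by 1.69 ± 0.12 or 3.24-fold in Nlrx1-/- cultures (SE, limma adjusted p = 4.29e-08 and 3.30e-07). Its depth of 193 to 1289 reads per library was the lowest of the 10.

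Dnajb9 (chr12:44252341-44257171, - strand) encodes ERdj4, a J-domain protein that brings BiP to IRE1 and to proteins bound for degradation. It was at 30.9, 38.9, 37.0 and 43.5 CPM in WT vehicle and at 34.3, 40.3, 39.2 and 39.2 CPM in WT LPS + IFNγ cultures. In Nlrx1-/- cultures it was at 34.0, 31, 36.0 and 34.2 CPM in vehicle and at 36.0, 38.7, 38.7 and 37.6 CPM with LPS + IFNγ. In CPM the WT groups overlapped and litter 4 was lower with LPS + IFNγ, while in Nlrx1-/- all 4 litters were higher with it. The mean TPM instead went from 58.2 ± 7.58 in vehicle to 50.9 ± 2.48 with LPS + IFNγ in WT (SD, n = 4). In Nlrx1-/- cultures the mean TPM went from 50.2 ± 3.71 to 49.5 ± 1.94. The direction of change of Dnajb9 thus depended on the unit, and the responses below are in CPM. The response was 0.03 log2 units in WT (95% interval -0.11 to 0.18, limma adjusted p = 0.706) and 0.16 in Nlrx1-/- cultures (95% interval 0.01 to 0.31, limma adjusted p = 0.0680). Over the alternatives the adjusted p stayed between 0.333 and 0.971 in WT and between 0.0592 and 0.449 in Nlrx1-/- cultures. The upper bound in WT was below the lower bound of each of the other 9 responses.

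**Figure D3:**
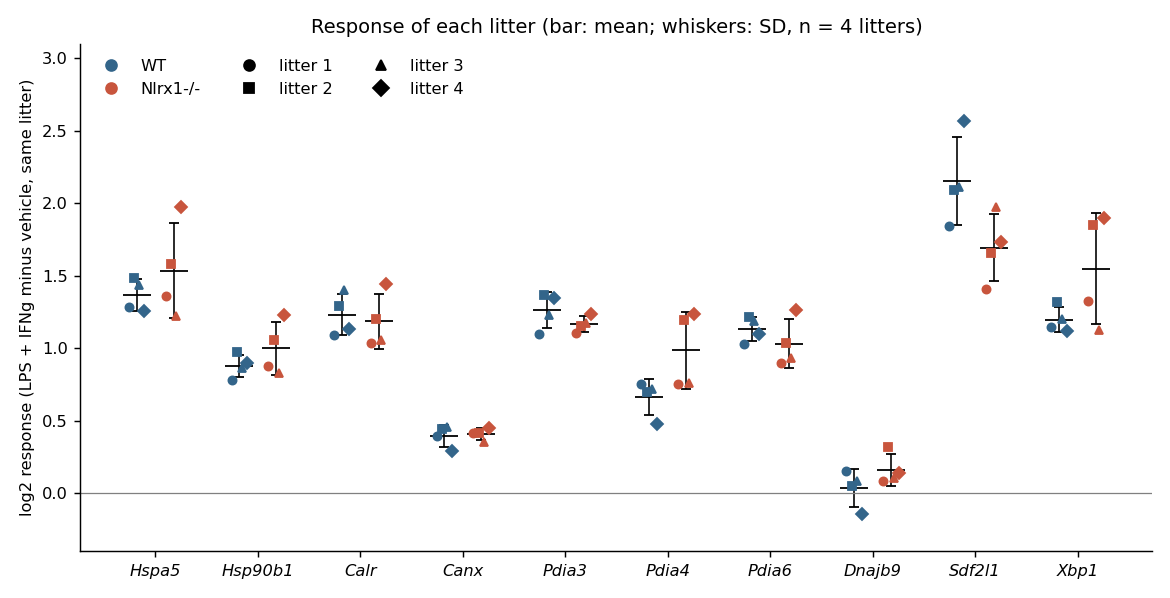
Response to LPS + IFNγ of each of the 10 genes in every litter, as the difference in log2 CPM between the treated and the vehicle culture of the same litter. Points are litters (WT blue, Nlrx1-/- red), bars the mean and whiskers the SD over 4 litters. Sdf2l1 has the largest mean response, 2.16 in WT and 1.69 in Nlrx1-/-, and Dnajb9 the smallest, 0.03 and 0.16.

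Xbp1 (chr11:5470606-5483027, + strand) encodes the transcription factor that IRE1 activates by splicing. It was at 24.7, 22.7, 22.0 and 23.0 CPM in WT vehicle and at 54.7, 56.7, 50.5 and 50.0 CPM in WT LPS + IFNγ cultures. For Nlrx1-/- cultures the levels were 24.1, 28.6, 23.3 and 24.7 CPM in vehicle and at 60.4, 103, 50.7 and 92.0 CPM with LPS + IFNγ. The treated libraries of Nlrx1-/- litters 2 and 4 were far above the other 6, and those of litters 1 and 3 were close to the WT range. The response was 1.20 ± 0.11 log2 units or 2.29-fold in WT and 1.55 ± 0.11 or 2.92-fold in Nlrx1-/- cultures (SE, limma adjusted p = 4.41e-06 and 4.11e-07). Without litters 2 and 4 it was 1.22 log2 units in Nlrx1-/- cultures. The SD of the response over litters was 0.09 in WT and 0.38 in Nlrx1-/- cultures.

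IRE1 removes 26 bases from Xbp1 RNA, which shifts the reading frame and yields the longer, active protein. GENCODE M39 places these bases at chr11:5474278-5474303 on the + strand of GRCm39. This is in a coding part of exon 4 of the unspliced transcript and between exons of the spliced one. The G at the start of these bases is repeated just after them, so a gap starting at the next base leaves the same spliced RNA. The annotation therefore does not fix the exact cut sites of IRE1. These 26 bases are shown because they are the only difference that separates the Xbp1 transcripts compared here. They are in capitals as GENCODE M39 places them, with a pair of lower-case bases on either side.
Xbp1 intron: ccGCAGCACTCAGACTATGTGCACCTCTgc

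The coding sequence is 267 codons long with these bases and 371 without them. Salmon's estimates for the RefSeq transcripts with and without the 26 bases were used to follow splicing. Only reads across this site tell the transcripts apart, so the total reads are not the depth of the share, and no counting interval is given. The transcript without the 26 bases was listed at 0 in 7 of 16 libraries, which can be a failed estimate. Its share of the TPM of both was 1.69, 0, 0 and 0% in the vehicle cultures of WT litters 1 to 4 and 1.98, 0.716, 0 and 1.86% in their treated cultures. For the Nlrx1-/- litters it was 1.85, 0, 0 and 0% in vehicle and 0.242, 4.48, 5.22 and 2.69% with LPS + IFNγ. In 3 of 4 treated Nlrx1-/- libraries the share was above that of the other 13 libraries. The change within litters was 0.29, 0.716, 0 and 1.86 percentage points in WT and -1.60, 4.48, 5.22 and 2.69 in Nlrx1-/- litters. The mean change was 1.98 percentage points higher in Nlrx1-/- litters, which did not pass an exact permutation test over litters (two-sided p = 0.229, smallest possible 0.0286). Without Nlrx1-/- litters 2 and 4 it was 1.09 (exact p = 0.667). With single litters left out it ranged from 1.14 to 3.41 percentage points. The highest value was that without Nlrx1-/- litter 1 (exact p = 0.0286, the smallest that 3 against 4 litters allow), and because this litter is the one whose change went the other way, that p is no support for a difference. By these estimates the unspliced transcript rose from 22.9 ± 1.11 to 44.9 ± 2.61 TPM in WT and from 23.9 ± 1.96 to 62.1 ± 18.1 TPM in Nlrx1-/- cultures (SD, n = 4). Where the estimate of the other transcript failed, its reads would be counted here, so the split of the rise is uncertain.

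**Figure D4:**
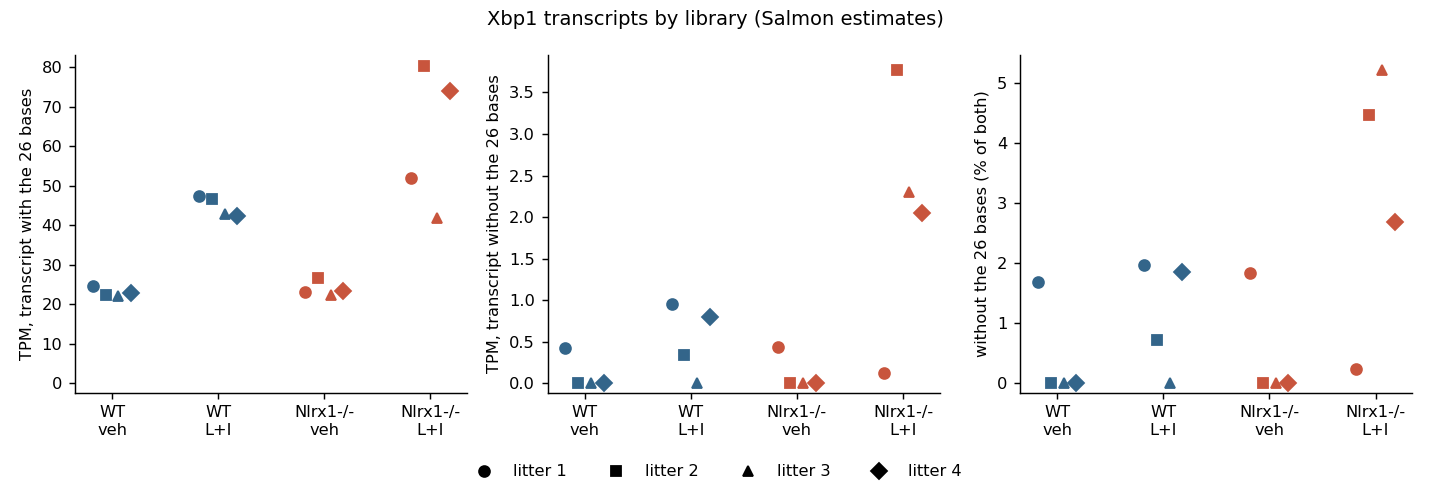
Salmon estimates for Xbp1 in every library, with litters by symbol (WT blue, Nlrx1-/- red, veh for vehicle and L+I for LPS + IFNγ). The panels show the TPM of the transcript with the 26 bases, the TPM of the transcript without them, and the latter as a percentage of both. The share reaches 5.22% in Nlrx1-/- LPS + IFNγ cultures and at most 1.98% in WT cultures, and 7 libraries are at 0.

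The second question was whether the responses differed between the genotypes. In the interaction of genotype and treatment, 0 of 10 genes passed the limma test, as did 0% of all genes. Before adjustment, 3 of 10 were below 0.05, as were 16.7% of all genes. The edgeR test gave 0 of 10 (0% of all genes) and DESeq2 gave 0 of 10 (2.88%). Pdia4 responded by 0.32 ± 0.12 log2 units more in Nlrx1-/- than in WT cultures (SE, 95% interval 0.07 to 0.58, limma adjusted p = 0.213). Its responses were 0.75, 0.70, 0.72 and 0.48 in WT litters and 0.75, 1.20, 0.76 and 1.23 in Nlrx1-/- litters, so the groups met at 0.75 and litters 2 and 4 were the highest. Sdf2l1 responded by 0.46 ± 0.17 log2 units less (difference -0.46, 95% interval -0.83 to -0.09, limma adjusted p = 0.217). Its responses were 1.84, 2.10, 2.12 and 2.57 in WT and 1.41, 1.66, 1.97 and 1.73 in Nlrx1-/- litters, which overlapped. Xbp1 responded by 0.35 ± 0.16 log2 units more (95% interval 0.00 to 0.70, limma adjusted p = 0.294), from responses of 1.15, 1.32, 1.20 and 1.12 in WT and 1.32, 1.85, 1.12 and 1.90 in Nlrx1-/- litters. For the other 7 genes the differences lay between -0.10 (Pdia6) and 0.17 (Hspa5).

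Litters 2 and 4 had the highest Nlrx1-/- responses of Pdia4, Xbp1 and Hspa5, so leaving them out lowers these differences by construction. Without them the difference was 0.09 for Pdia4, 0.03 for Xbp1 and -0.076 for Hspa5, while that of Sdf2l1 was -0.46 as before (limma adjusted p from 0.524 to 0.961). None of these 4 passed the test with or without them. With all litters, the intervals of the other genes still allowed differences of up to 0.46 log2 units (Hspa5), so equal responses were not shown.

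The third question was how the genotypes differed within each treatment. In vehicle cultures 0 of 10 genes passed the limma test in the fit of all 16 libraries, against 0.00599% of all genes, the 1 gene being Nlrx1. Before adjustment, 3 of 10 were below 0.05, near the 21.1% of all genes that were. The counts were also 0 of 10 in edgeR (0% of all genes), in DESeq2 (5.87%) and without Nlrx1-/- litters 2 and 4 (0.012%). Sdf2l1 was 0.46 ± 0.15 log2 units higher (SE, limma adjusted p = 0.12) and Pdia6 was 0.23 ± 0.09 higher in Nlrx1-/- cultures (limma adjusted p = 0.176). Pdia4 was -0.24 ± 0.08 log2 units from WT, that is lower in Nlrx1-/- (limma adjusted p = 0.124). Leaving out WT litter 1 brought Sdf2l1 past the threshold (0.59 log2 units, limma adjusted p = 0.0430, with 2.96% of all genes called), and leaving out Nlrx1-/- litter 3 did so for Pdia4 (-0.29, limma adjusted p = 0.0404, with 9.68% called). Without Nlrx1-/- litters 2 and 4 the difference was -0.11 for Pdia4 and 0.45 for Sdf2l1 (limma adjusted p = 0.698 and 0.655).

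In LPS + IFNγ cultures 0 of 10 genes passed the limma test, where 8.8% of all genes did (4.4% higher and 4.41% lower in Nlrx1-/-). Before adjustment, 3 of 10 were below 0.05, near the 29.6% of all genes that were. The edgeR test gave 0 of 10, with 5.03% of all genes called, and DESeq2 gave 2 of 10, with 18% called. Hspa5 was 0.40 ± 0.14 log2 units higher in Nlrx1-/- cultures (SE, limma adjusted p = 0.0727) and 0.42 in DESeq2 (adjusted p = 0.0288). Xbp1 was 0.47 ± 0.16 log2 units higher (limma adjusted p = 0.0740) and 0.53 in DESeq2 (adjusted p = 0.0235). Hsp90b1 was 0.22 ± 0.09 log2 units higher (limma adjusted p = 0.106). For each of the 3 genes, 3 of 4 Nlrx1-/- libraries were above all WT libraries. In all 3, Nlrx1-/- litters 2 and 4 were the highest and litter 3 the lowest of the treated Nlrx1-/- libraries. Leaving out the former lowers the difference by construction and leaving out the latter raises it, so neither fit tests it. In the same treated cultures the astrocyte markers summed to 5536 and 5391 CPM in litters 2 and 4 and to 6037 and 7265 CPM in litters 1 and 3 (6319 to 9453 CPM in WT), and the part of this in the differences was not tested. Without litters 2 and 4 Hspa5 was 0.11, Hsp90b1 0.07 and Xbp1 0.07 log2 units higher (limma adjusted p from 0.661 to 0.787, with 0.018% of all genes called), and without litter 3 they were 0.53, 0.30 and 0.65 higher and all 3 passed the test (with 23.2% called). Sdf2l1 and Pdia3, at -0.01 and -0.01 log2 units, had 95% intervals of -0.32 to 0.31 and -0.14 to 0.12.

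How far the 10 genes moved together from litter to litter was described on log2 CPM centred by condition, over 16 libraries from 8 litters. Hspa5 and Xbp1 had a Pearson r of 0.924 and Hspa5 and Hsp90b1 of 0.910. Dnajb9 and Sdf2l1 went opposite ways at -0.775. Of the 45 pairs, 16 were above 0.5 and the median was 0.342, so the 10 genes did not vary as 1 block. The genes outside the 10 that were most like Hspa5, among 10523 with a mean log2 CPM of at least 3, were Ibtk (0.965), Aars (0.963) and Gars (0.955), tRNA synthetases for alanine and glycine, Slc1a4 (0.961), a carrier of neutral amino acids, and Hspa9 (0.953), the mitochondrial HSP70. Those most like Xbp1 were Nampt (0.970), an enzyme of NAD salvage, Dync1li1 (0.968), a dynein chain, Eif3c (0.965), Hax1 (0.963) and Copb1 (0.959), a subunit of the COPI coat. The points share litters, and Nlrx1-/- litters 2 and 4 stand apart for both Hspa5 and Xbp1.

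The other genes of the ER stress pathways were taken from lists that, like the 10 genes, were chosen with earlier results of these data known. Over all genes, 24.9% rose and 21.9% fell in WT, and 26.6% rose and 25.5% fell in Nlrx1-/- cultures. Of 30 other folding enzymes, co-chaperones and oxidases of the ER, 23 rose and 1 fell in WT, and 20 rose and 0 fell in Nlrx1-/- cultures (limma, as above), with medians of 0.34 and 0.33 log2 units. The most increased were Creld2 (1.51 ± 0.10 in WT and 1.61 ± 0.10 in Nlrx1-/-, SE) and Manf (1.46 ± 0.06 and 1.39 ± 0.06), both secreted ER stress proteins. Cdnf, a relative of Manf, fell by 0.93 in WT and was at -0.70 in Nlrx1-/- cultures, where it did not pass the test (limma adjusted p = 0.0836). The WT call of Cdnf was lost in edgeR and DESeq2 (adjusted p = 0.0556 and 0.0530) and, in limma, without WT litters 1, 3 or 4 (adjusted p up to 0.107). Of 22 genes of ER-associated degradation, 11 rose in WT, and 17 rose and 3 fell in Nlrx1-/- cultures, with Edem1, a lectin that passes glycoproteins to degradation, at 2.25 ± 0.08 and 1.96 ± 0.08. Derl3, a channel component, was at 1.29 ± 0.40 and 1.53 ± 0.40, and its WT call was lost without WT litters 1, 2 or 3 (limma adjusted p up to 0.0751). Of 22 genes of translocation into the ER, 16 rose and 1 fell in WT, and 13 rose and 1 fell in Nlrx1-/- cultures, among them Sec11c of the signal peptidase (0.71 ± 0.09 and 0.55 ± 0.09). Of 16 genes of N-glycan transfer and the calnexin cycle, 12 rose and 1 fell in WT, and 10 rose and 1 fell in Nlrx1-/- cultures. Uggt1, the folding sensor that sends glycoproteins back to calnexin, rose by 1.11 ± 0.04 and 1.04 ± 0.04, while its relative Uggt2 fell by 0.32 and 0.21. The calls of Uggt2 were lost in edgeR (adjusted p = 0.198 in WT and 0.368 in Nlrx1-/-) and DESeq2 (0.153 and 0.364), and in limma that in Nlrx1-/- cultures was lost without litters 1, 2 or 4 (adjusted p up to 0.103).

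The sensors and their factors were more mixed, where 24.9% of all genes rose in WT and 26.6% in Nlrx1-/- cultures. Of 12, 5 rose and 2 fell in WT, and 7 rose and 1 fell in Nlrx1-/- cultures. Creb3l1, an ER-bound transcription factor, rose by 1.86 ± 0.19 and 2.16 ± 0.19 log2 units (SE) and Atf6b by 0.66 ± 0.05 and 0.63 ± 0.05. Atf6 fell by 0.29 in WT and was at 0.00 in Nlrx1-/- cultures (limma adjusted p = 0.239 for the interaction). Of 12 genes of the PERK, ATF4 and CHOP branch, 8 rose in WT and 11 in Nlrx1-/- cultures, with medians of 0.72 and 1.69 log2 units. The Nlrx1-/- values are from all litters, of which 2 and 4 had the highest summed levels in treated cultures, as given below. Trib3, a pseudokinase induced by ATF4 and CHOP, rose by 2.19 ± 0.52 and 4.07 ± 0.52 (with a pseudocount of 1, 0.93 and 2.89, the former with a limma adjusted p of 0.0741), and Atf3 by 2.19 ± 0.48 and 2.59 ± 0.48. Of 6 transcripts known to be degraded by IRE1, 2 fell in WT (Sparc and Scara3), and 2 fell (Col6a1 and Scara3) and 1 rose (Pdgfrb) in Nlrx1-/- cultures, near the 21.9% and 25.5% of all genes that fell. The calls of Col6a1 and Pdgfrb were lost with single Nlrx1-/- litters left out, Col6a1 without litters 1, 3 or 4 (limma adjusted p up to 0.137) and Pdgfrb without litters 2 or 4 (up to 0.0945). Of 13 cytosolic and mitochondrial heat shock genes, 7 rose and 1 fell in WT, and 10 rose and 1 fell in Nlrx1-/- cultures, led by Hspe1 (0.65 ± 0.06) and Hspd1 (0.55 ± 0.08) in WT. All 6 genes of class I peptide loading rose in both genotypes, with medians of 4.21 and 4.26 log2 units, up to 6.31 ± 0.07 for the transporter subunit Tap1 in WT.

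**Figure D5:**
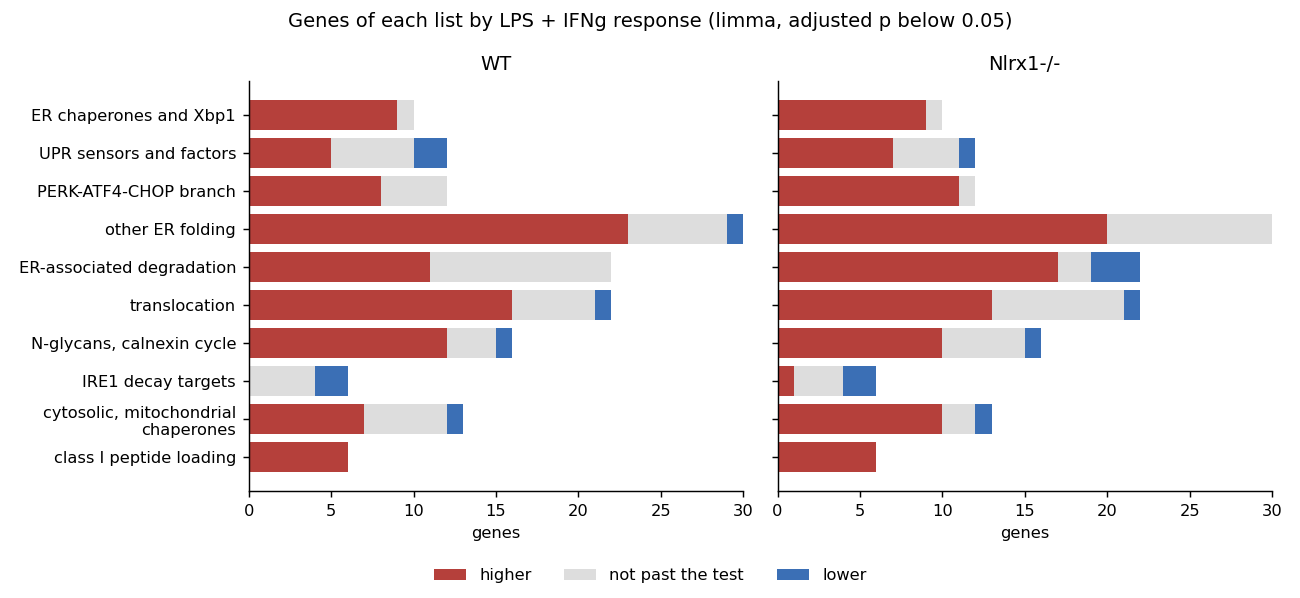
Number of genes of each list that were higher, lower or not past the test (limma adjusted p below 0.05) with LPS + IFNγ, in WT (left) and Nlrx1-/- (right) cultures. Among the ER chaperones and Xbp1, 9 of 10 are higher on both sides, and all 6 class I peptide loading genes are. Of all genes, 24.9% are higher in WT and 26.6% in Nlrx1-/- cultures.

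No list had a gene past the test in the interaction or, between genotypes, in vehicle. In LPS + IFNγ cultures 16 of the 139 listed genes outside the 10 differed between the genotypes (11.5%, where 8.8% of all genes did), of which 5 were of the PERK branch. All 5 were higher in Nlrx1-/- cultures: Trib3 (2.88 ± 0.75 log2 units, SE), Chac1 (2.42 ± 0.65), Asns (1.87 ± 0.45), Vldlr (1.28 ± 0.35) and Sesn2 (1.21 ± 0.30), with limma adjusted p from 0.0349 to 0.0412. Ero1a, the oxidase that charges disulfide isomerases, was 0.80 ± 0.19 higher and Pdia5 0.55 ± 0.16 higher. Herpud1 of ER-associated degradation was 0.67 ± 0.19 higher, and Edem2 was the 1 gene that was lower (-0.38 ± 0.11). Nploc4, of the same list, was 0.24 ± 0.07 higher in limma, but at -0.058 in edgeR and -0.049 in DESeq2, where it did not pass (adjusted p = 0.801 and 0.834). The remaining 6 were higher, namely Nfyc (0.23 ± 0.07), Srp72 (0.33 ± 0.08), Hspa4 (0.33 ± 0.10), Hspa8 (0.58 ± 0.17), Hspa9 (0.76 ± 0.20) and Hsph1 (0.47 ± 0.11). Without Nlrx1-/- litters 2 and 4 none of the 16 passed (limma adjusted p from 0.269 to 0.531). The summed level of the 12 PERK branch genes in treated Nlrx1-/- cultures was 997, 1742, 683 and 1710.3 CPM in litters 1 to 4, against 615 to 801 CPM in WT, so litters 2 and 4 stood apart here as they did for Hspa5 and Xbp1.

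Genes that carry an exact ERSE outside the 10 were looked at in the same way. Of 37 genes with an exact copy, 21 were in the log2 CPM table, 5 of them among the 10. Of the other 16, 7 rose and 2 fell in WT and in Nlrx1-/- cultures, with medians of 0.27 and 0.10 log2 units, and 7 did not pass the test in each genotype. Of all genes, 24.9% rose and 21.9% fell in WT, and 26.6% rose and 25.5% fell in Nlrx1-/- cultures. Among those that rose were Creld2, Derl3 and, named here after its value was seen, Syvn1, the ubiquitin ligase of ER-associated degradation. Conversely, Sdf2l1, Pdia3, Pdia4 and Xbp1 rose with no exact copy in their windows.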

How the data were processed

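Poly-A RNA libraries without strand information were sequenced by the study. The authors quantified transcripts with Salmon 1.7.0 against GRCm39 and deposited each transcript's expected count and TPM. The authors also deposited gene-level signal values, CPM of length-scaled counts (tximport) over TMM-adjusted library sizes, and their log2 values from limma-voom (limma 3.58.1). No columns of samples were left unused.

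Groups came from the labels. Litters pair the libraries, since the study's design text says that both wells came from the same set of mice, and same-litter libraries correlated at 0.326 to 0.703 (deviations from group means) against a median of -0.131 for other litters. The same number in WT and Nlrx1-/- marks different mice. Responses and interaction were fitted on log2 CPM of all 16707 genes with limma 3.58.1 (trend) in R 4.3.3, with litter within genotype. Genotypes were compared without litter terms. Calls used Benjamini-Hochberg adjusted p below 0.05, and intervals the moderated standard error. Expected counts, rounded for DESeq2 1.42.0 and used with length offsets there and in edgeR 4.0.16, were summed per gene over the 106440 of 129698 transcripts that could be paired with a symbol. Exact tests were run in Python 3.11.15. The fits were tested on simulated data.

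The 10 genes and all lists were chosen with earlier results of these data known. Other genes were named by a rule: Nlrx1, for each list and genotype up to 2 called genes with the largest increase and 2 with the largest decrease, any listed gene called between genotypes, and the 5 genes most like Hspa5 and Xbp1. Not all of these are printed. Within the libraries, reads from genes on the other strand that overlap exons of Hspa5, Hsp90b1, Canx, Pdia3, Pdia6, Dnajb9 and Xbp1 cannot be told apart from theirs. The precision of a value follows from the reads and litters given beside it.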

Additional observations from a re-analysis of the deposited data

Results flagged for a closer look

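In 72 sets of 4 litters (the level of each of the 10 genes and of Nlrx1 in each group, the responses, and the Xbp1 shares), 1 litter stood far from the other 3 in 5 sets, where its gap to the nearest of them was above Dixon's 95% critical share of the range. For normally distributed values, chance alone flags about 1 in 20 such sets. Pdia3 in Nlrx1-/- vehicle cultures was at 8.68 log2 CPM in litter 4, against 8.83 to 8.84 in the others. Nlrx1 in Nlrx1-/- LPS + IFNγ cultures was at 1.09 log2 CPM in litter 3, against 2.09 to 2.23. The response of Nlrx1 in WT litter 1 was -0.36 log2 units, against -0.04 to 0.01. The Xbp1 transcript without the 26 bases had a share of 1.69% in WT vehicle litter 1 and of 1.85% in Nlrx1-/- vehicle litter 1, where the other litters were listed at 0. Any value above 0 is flagged beside such litters, so the chance rate does not apply to these shares.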

How the results depend on the processing

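The counts of 9 of 10 genes higher in WT and in Nlrx1-/- cultures, and of 0 in the interaction, were the same in all alternatives. These were edgeR and DESeq2 on Salmon counts, a pseudocount of 1, a filter at a mean log2 CPM of 1, equal library medians, no variance trend, another pairing, each litter left out, and, added after the data were seen, both Nlrx1-/- litters 2 and 4 left out. The litter pairing changed no call of the 10 genes: with no replicate block 9, 9 and 0 passed, and with litter as a replicate block the genotype comparisons gave 0 and 0. Of the listed genes named above, the calls of Sparc and Scara3 in WT and of Col6a1, Pdgfrb and Uggt2 in Nlrx1-/- cultures were lost with no replicate block. Between genotypes, DESeq2 gave 2 in LPS + IFNγ cultures. With each litter left out in turn the count ranged from 0 to 1 in vehicle and from 0 to 3 in LPS + IFNγ cultures. The Xbp1 share difference was 1.95 percentage points on expected counts, ranged from 1.14 to 3.41 with a litter left out, and gave p = 0.173 with no replicate block (exact permutation within treatments). Its log2 ratio was not run, since 7 libraries were listed at 0.

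Some values of the 10 genes near 0 changed sign, none of them past the test. Without litters 2 and 4 the interaction was -0.076 for Hspa5, -0.025 for Hsp90b1 and -0.013 for Canx, and the genotype difference in LPS + IFNγ cultures was -0.013 for Calr and -0.016 for Pdia4. With equal medians the WT response of Dnajb9 was -0.053. With each litter left out in turn, the WT response of Dnajb9 ranged from -0.0045 to 0.096, the interaction of Calr from -0.13 to 0.010 and that of Canx from -0.022 to 0.032. In LPS + IFNγ cultures the genotype difference ranged from -0.038 to 0.033 for Sdf2l1, from -0.036 to 0.015 for Pdia3 and from -0.069 to 0.0083 for Dnajb9. A called value reversed too: the difference of Nploc4 in LPS + IFNγ cultures, 0.24 in limma, was -0.058 in edgeR and -0.049 in DESeq2, and the cause was not tested.

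The number of all genes that differed between the genotypes in LPS + IFNγ cultures was 1471 in limma, 809 in edgeR and 2500 in DESeq2, and in limma 2 without the trend, 1 in the 8 libraries of the treatment, 3 without litters 2 and 4, and 1 to 3868 with a litter left out (the low counts without WT litters 2, 3 or 4 or Nlrx1-/- litters 2 or 4). The calls of the other listed genes in that comparison therefore rest on these choices.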
